A study of Mus musculus with 6 samples.

Results

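The genes described here encode the beta and alpha2delta subunits of voltage-gated calcium channels, Cacnb1 to Cacnb4 and Cacna2d1 to Cacna2d3. They were taken by name, whatever their values, as all probe sets that the annotation of the Affymetrix mouse genome array gives to 1 of these genes alone. Of the 7 genes, 6 had such a probe set, 18 probe sets in all, among 18193 genes named on the array. Cacnb3 had none in the annotation used and was not analysed here. The probe set with the highest mean stood for its gene, and the other probe sets served as a check. RNA came from male C57BL/6J mice, with no genetic change or treatment named, and from 3 auditory nuclei. These were the cochlear nucleus in its ventral division (VCN), the superior olive's lateral nucleus (LSO) and the trapezoid body's medial nucleus (MNTB). Each nucleus gave 1 array at postnatal day 3 (P3), from 6 pooled animals, and 1 at postnatal day 14 (P14), from 3 pooled animals. The younger age precedes the onset of hearing in mice and the older one follows it.

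A high-voltage-activated calcium channel has a pore subunit, which conducts the ions, and auxiliary subunits, which set how many channels reach the membrane and how they gate. Beta subunits lie inside the cell and bind an intracellular loop of the pore. Alpha2delta subunits lie outside it, held to the membrane by a lipid anchor, and those encoded by Cacna2d1 and Cacna2d2 bind the drug gabapentin. In the auditory brainstem, presynaptic calcium channels drive release at the large terminals of the auditory nerve in the VCN and at the calyx of Held in the MNTB, where the channel types that trigger release change as the synapse matures. Mice with mutations in Cacnb4 (lethargic) or Cacna2d2 (ducky) have seizures and ataxia, and mice without Cacna2d3 have altered auditory processing.

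The bases just upstream of annotated start sites are shown for the 4 genes whose levels set the patterns described next. These are Cacna2d1, which was lower at P14, Cacnb4, which was higher at P14, Cacna2d3, whose level was ordered by nucleus at both ages, and Cacnb2, whose age difference was opposite in VCN and MNTB. The windows hold the 100 bases before a start site in RefSeq's annotation of build GRCm38.p6, on the coding strand and 5′ to 3′, and all 7 listed genes matched by symbol. Capitals mark GC boxes, the letters GGGCGG or their complement CCGCCC, and matches may overlap. Where a gene has several start sites, they are counted from the 5′ end of the gene, and no probe set was assigned to a start site.
Cacna2d1, chr5:15934591-15934690, plus strand: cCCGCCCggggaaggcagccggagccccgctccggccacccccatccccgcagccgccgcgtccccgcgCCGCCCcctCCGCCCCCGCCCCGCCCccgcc
Cacna2d3, chr14:29721865-29721964, minus strand: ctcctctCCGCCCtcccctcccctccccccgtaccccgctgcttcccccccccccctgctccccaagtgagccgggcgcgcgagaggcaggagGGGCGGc
Cacnb4, start site 1 of 3, chr2:52676144-52676243, minus strand: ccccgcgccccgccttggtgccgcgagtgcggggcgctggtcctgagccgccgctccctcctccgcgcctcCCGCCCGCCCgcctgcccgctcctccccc
Cacnb4, start site 3 of 3, chr2:52558612-52558711, minus strand: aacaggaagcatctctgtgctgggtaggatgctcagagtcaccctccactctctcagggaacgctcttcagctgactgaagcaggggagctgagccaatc
Cacnb2, start site 1 of 2, chr2:14604206-14604305, plus strand: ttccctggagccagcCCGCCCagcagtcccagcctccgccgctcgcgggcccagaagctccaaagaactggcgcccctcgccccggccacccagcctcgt
Cacnb2, start site 2 of 2, chr2:14823992-14824091, plus strand: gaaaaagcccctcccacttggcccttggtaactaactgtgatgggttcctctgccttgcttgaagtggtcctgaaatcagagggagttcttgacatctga

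Start sites of the same gene could differ in base composition. The Cacna2d1 window held 16 CpG dinucleotides and 5 GC boxes, and 3.9% of the 32851 windows of this length held as many CpG. The first start site of Cacnb4 had 15 CpG, the second, not printed, had 9 with 0 GC boxes, and the third had 1, and the first of Cacnb2 had 9 and its second 0, against a median of 3 over all windows. A GC box occurred in 24.7% of all windows. It was found in every printed window except the third of Cacnb4 and the second of Cacnb2. Of the motifs searched besides, on both strands, AGGTCA (5.88% of all windows) and TATAAA (5.56%) were in none of the windows of the 7 genes. The E box letters CANNTG (34.4% of all windows) were in the windows of Cacna2d3, the second start site of Cacnb1, the second of Cacnb2 and the third of Cacnb4. These are matches of letters, not sites.

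The deposited values are log2 expression per probe set, so 1 unit is a doubling. No combination of nucleus and age was repeated. The spread behind every test is therefore how far a difference varied over nuclei or ages, with 2 degrees of freedom from the residuals and 3.95 added by the prior. The p-values measure that repetition and not the spread between animals. Whether the 3 nuclei of an age were taken from the same animals is not stated in the labels. Array medians were 6.27 to 6.31. The Gapdh signal was higher at the 3' than at the 5' probe set by 1.21 to 1.41 at P3 and by 1.06 to 1.11 at P14, and the pool size also went with age. Effects of RNA quality or pooling common to an age cannot be told apart from age. The labelled nuclei were checked by transmitter genes. The glycine transporter Slc6a5 was higher in MNTB than in VCN by 1.95 (limma, adjusted p = 0.0352), as was the vesicular transporter Slc32a1 by 1.72 (adjusted p = 0.0072), while the vesicular glutamate transporter Slc17a6 was lower in MNTB (-2.66, adjusted p = 0.0285). Between MNTB and LSO these 3 genes differed by 1.004, 0.63 and -1.49 and did not pass (adjusted p = 0.376, 0.241 and 0.243), so the LSO label was not checked against MNTB. Between VCN and LSO, Slc32a1 passed (-1.09, limma, adjusted p = 0.0273). Slc6a5 (-0.94, adjusted p = 0.28) and Slc17a6 (1.17, adjusted p = 0.248) did not pass for that pair.

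The first comparison asked which subunit genes differed between P3 and P14 over the 3 nuclei. Cacna2d1 and Cacnb1 were lower at P14, by 3.14-fold and 2.17-fold. Cacnb4 was 2.15-fold higher, and Cacna2d2 was 1.25-fold lower. Cacnb2 and Cacna2d3 did not pass. In all, 1 of the 6 genes passed as higher and 3 as lower at an adjusted p under 0.05. Over the 12958 genes tested with limma, 41.0% passed, 23.4% as higher (3029 genes) and 17.7% as lower (2288), so a pass for age was frequent on these arrays. With each array centred on the median of the tested genes, an alternative chosen after seeing the data, the split was 2432 higher and 3004 lower. That centring lowered every age difference, so it was no check of the 3 lower calls. The calls of the 4 subunit genes were kept there. With each array centred on its median over all probe sets, Cacna2d2 no longer passed (limma, adjusted p = 0.0511). The median age difference was -0.14 over the 6 genes and 0.03 over all tested genes. In this bulk tissue, fewer cells of a type and less RNA per cell cannot be told apart.

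**Figure D1:**
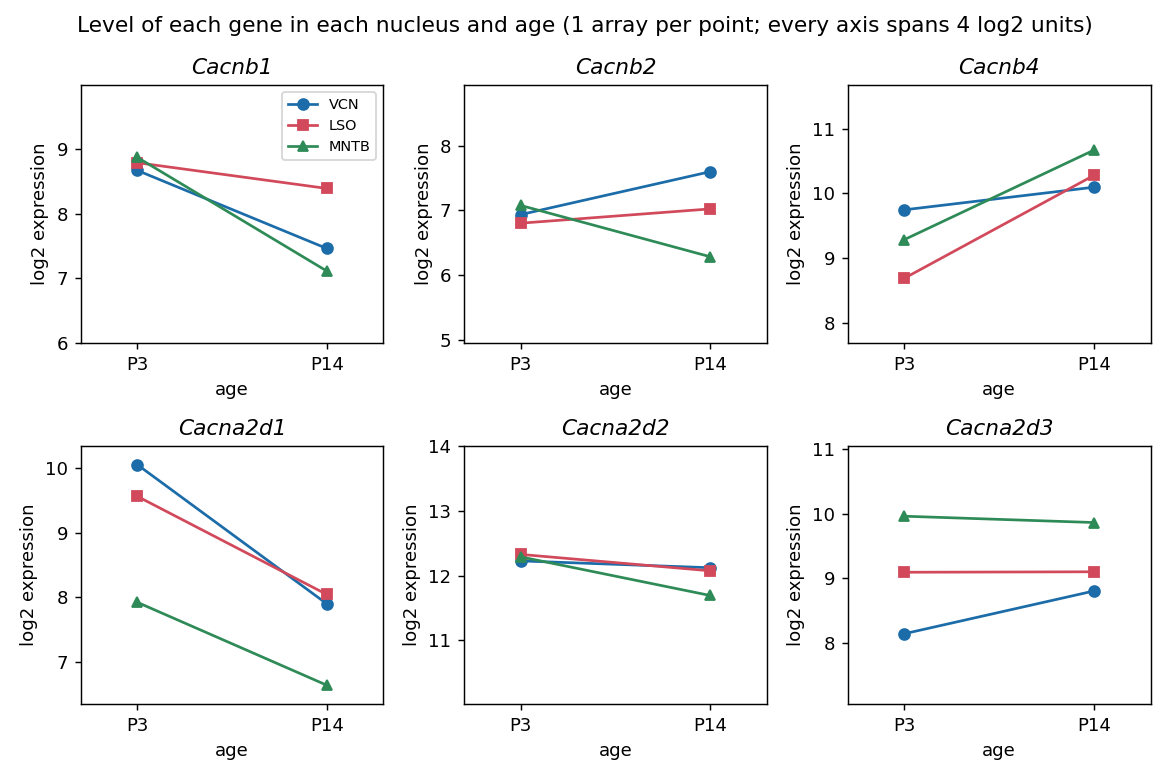
Level of each of the 6 genes (log2 expression, vertical axis) at P3 and P14 (horizontal axis), with 1 array per point and a line for each nucleus; every vertical axis spans 4 log2 units, and levels are not comparable between genes. Cacna2d1 falls in all 3 nuclei and is lowest in MNTB, Cacnb4 rises in all 3, Cacnb2 spreads apart at P14, and Cacna2d3 keeps the order MNTB, LSO, VCN.

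Among the beta subunits, Cacnb1 fell. Its product is the beta subunit of the skeletal muscle channel and is also made in neurons. In the order VCN, LSO and MNTB, its level was 8.67, 8.79 and 8.87 at P3 and 7.46, 8.39 and 7.11 at P14. The 3 nuclei were alike at P3 and spread apart at P14, and all P14 values lay below all P3 values. The age difference was -1.12 ± 0.25 (SE, 3 nuclei, limma, adjusted p = 0.0159). It was -1.76 in MNTB, -1.21 in VCN and -0.40 in LSO, a range that 1 array per point does not allow to be tested. Without either MNTB array it was -0.80 and no longer passed (adjusted p = 0.0618 and 0.0584). The probe sets 1425777_at and 1440940_at also passed, at -0.70 (adjusted p = 0.0134) and -0.49 (adjusted p = 0.02), while 1451834_at gave -0.14 (adjusted p = 0.407). In 1440940_at the nuclei did not spread apart at P14 (6.47, 6.46 and 6.42 in VCN, LSO and MNTB), so the low MNTB value was not seen by every probe set.

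Because Cacnb1 is also a muscle gene, markers of skeletal muscle were read beside it. The mean level of the 6 muscle markers was 6.21 to 6.59 at P3 and 5.67 to 5.71 at P14, and 3 of the 6 fell, Ryr1, Myh3 and Tnnt3. Ryr1, the calcium release channel of the muscle reticulum, had levels of 6.83 to 7.55 at P3 and 5.11 to 5.54 at P14. Myh3 and Tnnt3 fell most in VCN (-1.59 and -1.54) and less in MNTB (-0.69 and -0.50), whereas Cacnb1 fell most in MNTB. Cacna1s, the pore subunit of the muscle channel, was at 3.75 to 3.85 on the 6 arrays, within the 2.84 to 4.42 of the unspiked control probe sets. The part of muscle tissue in the Cacnb1 difference was not tested.

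Cacnb4, a beta subunit of central neurons, was higher at P14. In the same order of nuclei, the level was 9.75, 8.69 and 9.28 at P3 and 10.09, 10.28 and 10.67 at P14. All P14 values lay above all P3 values, and VCN was the highest nucleus at P3 and the lowest at P14. The age difference was 1.11 ± 0.24 (SE, 3 nuclei, limma, adjusted p = 0.0137), with 1.59 in LSO, 1.38 in MNTB and 0.35 in VCN. The other probe sets gave 1.25 (1428928_at, adjusted p = 0.0037) and 1.46 (1436912_at, adjusted p = 0.0011). In 1436912_at the difference in VCN was 1.54, close to the 1.67 of MNTB and above the 1.16 of LSO, so the small difference in VCN was not shared by all probe sets. Without an LSO array the difference was 0.87 (adjusted p = 0.0652 and 0.0654), and without an MNTB array 0.97 (adjusted p = 0.068 and 0.0682), neither of which passed.

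Cacnb2 encodes the main beta subunit of the heart and of inner hair cells. VCN, LSO and MNTB had levels of 6.94, 6.80 and 7.08 at P3 and of 7.60, 7.02 and 6.28 at P14. The nuclei lay within 0.27 log2 units of each other at P3 (MNTB minus LSO) and over 1 unit apart at P14, with VCN highest and MNTB lowest. The mean age difference was 0.03 ± 0.27 (SE, 3 nuclei, limma, adjusted p = 0.942), with a 95% interval of -0.64 to 0.70. It joined a difference of 0.66 in VCN and 0.22 in LSO with one of -0.79 in MNTB. The probe set 1456401_at gave the same order, with 0.48 in VCN, 0.07 in LSO and -0.34 in MNTB. The difference between nuclei in the age change was not tested, since the model with that term leaves no residual degrees of freedom.

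**Figure D2:**
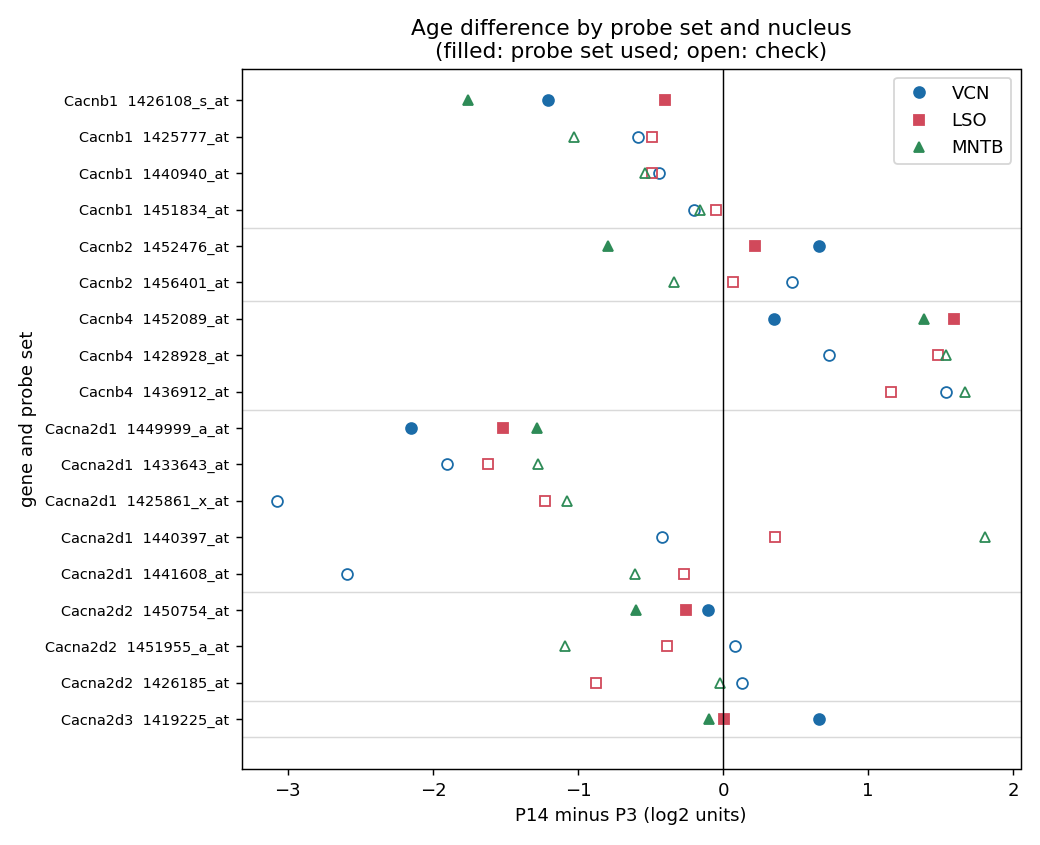
Age difference (P14 minus P3, log2 units, horizontal axis) of each of the 18 probe sets, 1 row per probe set, with a symbol for each nucleus; filled symbols are the probe set used for the gene and open symbols the others. Both Cacnb2 probe sets place VCN above and MNTB below 0. Compared within each nucleus, the 1440397_at probe set of Cacna2d1 lies to the right of the other 4.

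Among the alpha2delta subunits, Cacna2d1 showed the largest age difference of the 6 genes. Its product is a receptor for thrombospondins and for gabapentin. VCN fell from 10.05 to 7.90, LSO from 9.56 to 8.05 and MNTB from 7.92 to 6.64. MNTB was lowest at both ages, and its P3 level was as low as the P14 levels of VCN and LSO, so the ages overlapped across nuclei although each nucleus fell. The age difference was -1.65 ± 0.18 (SE, 3 nuclei, limma, adjusted p = 0.0015), with -2.15 in VCN, -1.52 in LSO and -1.28 in MNTB. With no term for nucleus the adjusted p was 0.0684, and for the median over its probe sets the difference was -1.50 (adjusted p = 0.058).

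The probe sets of Cacna2d1 were not alike. The 2 that passed besides the one used, 1433643_at and 1425861_x_at, gave -1.60 (adjusted p = 0.001) and -1.79 (adjusted p = 0.0145). The probe set 1441608_at gave -1.16 (adjusted p = 0.0811), with 5 of its 6 arrays within the range of the unspiked controls. The probe set 1440397_at gave 0.58 (adjusted p = 0.284), from -0.42 in VCN, 0.36 in LSO and 1.81 in MNTB. Its level was 3.18 to 5.37 at P3 and 4.94 to 5.24 at P14, and its MNTB value at P3 lay within the control range. Which transcripts these probe sets measure was not analysed here.

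Cacna2d2, an alpha2delta subunit strong in Purkinje cells, had a small difference. VCN, LSO and MNTB stood at 12.23, 12.33 and 12.29 at P3 and at 12.12, 12.08 and 11.69 at P14. All P14 values lay below all P3 values, with MNTB at P14 the lowest. The age difference was -0.32 ± 0.10 (SE, 3 nuclei, limma, adjusted p = 0.0483), of which VCN gave -0.11, LSO -0.25 and MNTB -0.60. The call was lost in 11 of 17 alternatives, among them centring each array on its median (adjusted p = 0.0511), and without an MNTB array the difference was -0.18 (adjusted p = 0.254 and 0.243). The probe set 1451955_a_at gave -0.46 (adjusted p = 0.146), from 0.08 in VCN, -0.38 in LSO and -1.09 in MNTB, and its ages overlapped. The probe set 1426185_at lay within the range of the unspiked controls on all 6 arrays. The Purkinje cell markers Pcp2 and Car8 differed by 0.89 and -0.98 with age, and their part in this result was not tested.

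Cacna2d3, which is needed for normal calcium channel numbers at auditory nerve terminals in mice, differed more between nuclei than between ages. MNTB had levels of 9.96 at P3 and 9.87 at P14, LSO of 9.10 and 9.10, and VCN of 8.15 and 8.81. The order was MNTB, LSO, VCN at both ages, and no VCN value reached any LSO or MNTB value. The mean age difference was 0.19 ± 0.17 (SE, 3 nuclei, limma, adjusted p = 0.395), with a 95% interval of -0.22 to 0.59. The difference in VCN was 0.66, against 0.01 in LSO and -0.10 in MNTB. This gene had a single probe set, so no other could check it.

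Of the 6 genes, 3 had P3 and P14 values that did not overlap (Cacnb1, Cacnb4 and Cacna2d2), and so did 53.6% of all tested genes.

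The next comparisons asked which subunit genes differed between the nuclei over both ages. Cacna2d1 was lower in MNTB than in VCN, and no other of the 6 genes passed in any contrast of nuclei. The share of tested genes that passed was 0.602% for MNTB minus VCN, 0.162% for MNTB minus LSO and 0.37% for VCN minus LSO. For Cacna2d1, MNTB minus VCN was -2.13 at P3 and -1.26 at P14, and the fitted difference was -1.69 ± 0.22 (SE, 2 ages, limma, adjusted p = 0.0466), a 3.24-fold lower level. The probe set 1433643_at gave -1.50 (adjusted p = 0.0403). The call was lost in 8 of 14 alternatives, with a value of -1.42 (adjusted p = 0.251) without the MNTB array of P3 and -1.97 (adjusted p = 0.137) without that of P14. Against LSO, MNTB was lower by a similar size, -1.64 at P3 and -1.40 at P14, but the fitted -1.52 ± 0.22 had an adjusted p of 0.145 (limma). This difference passed in 2 of 14 alternatives, those without a VCN array, which left the value at -1.52. Without an LSO or MNTB array the value ran from -1.80 to -1.25 and did not pass. VCN and LSO lay 0.17 apart (adjusted p = 0.925, 95% interval -0.37 to 0.72).

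Cacna2d3 ran the other way. MNTB minus VCN was 1.82 at P3 and 1.06 at P14, and the fitted 1.44 ± 0.20 (SE, 2 ages) just missed the threshold (limma, adjusted p = 0.0579). It passed in 5 of 14 alternatives, among them median centring (adjusted p = 0.0476), and the value was 1.09 (adjusted p = 0.0329) without the VCN array of P3. MNTB minus LSO was 0.81 (limma, adjusted p = 0.428, 95% interval 0.32 to 1.31). It passed in 1 of 14 alternatives, without the VCN array of P3, which left the value at 0.81. Without an LSO or MNTB array the value ran from 0.60 to 1.03 and did not pass. VCN minus LSO was -0.62 (adjusted p = 0.426, 95% interval -1.12 to -0.13). For the neighbours in the order of nuclei, both 95% intervals held values of a single sign, but they are unadjusted. Their width comes from all arrays of the gene and the prior, not from each pair's own values. By age, VCN minus LSO was -0.95 at P3 and -0.30 at P14, and MNTB minus LSO was 0.87 and 0.76. Neither pair passed after adjustment over all tested genes. At P3 Cacna2d1 and Cacna2d3 ranked the 3 nuclei in opposite order on the same arrays. At P14 MNTB was again lowest for Cacna2d1 and highest for Cacna2d3, and VCN and LSO lay close for Cacna2d1.

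**Figure D3:**
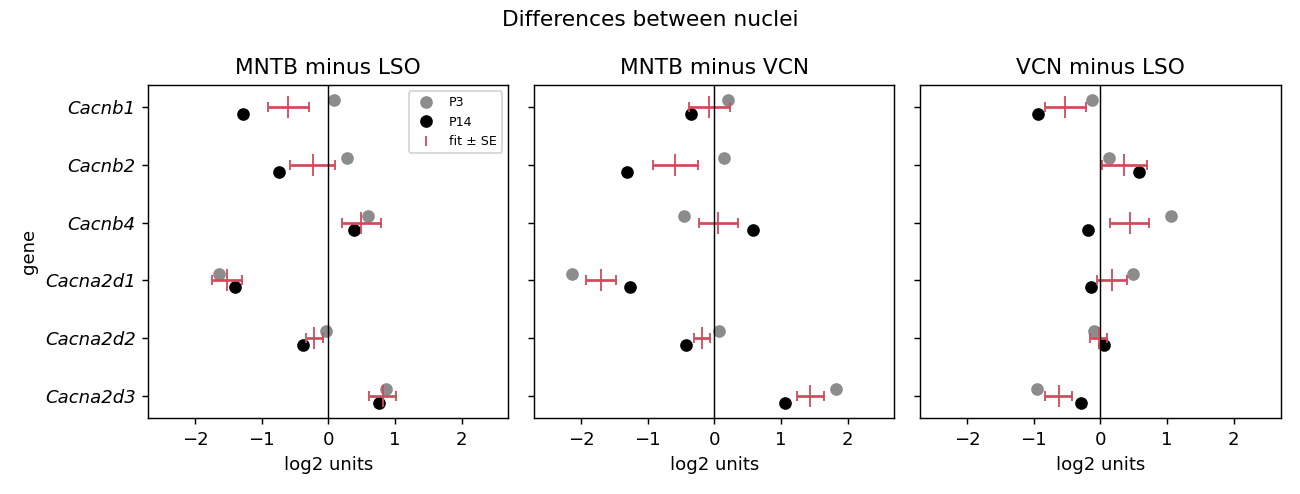
Difference between each pair of nuclei (log2 units, horizontal axis) for the 6 genes, with grey points for P3, black points for P14 and a red mark with its SE for the fitted difference over both ages. Cacna2d1 lies near -1.5 and -1.7 for MNTB against LSO and VCN, Cacna2d3 lies at 0.81 and 1.44, and for Cacnb1 and Cacnb2 the points of P14 lie farther from 0 than those of P3.

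The other 4 genes showed no contrast of nuclei that passed, although for Cacnb1 and Cacnb2 the nuclei were close at P3 and apart at P14. For Cacnb1, MNTB minus LSO was 0.08 at P3 and -1.28 at P14. For Cacnb2, MNTB minus VCN was 0.14 at P3 and -1.32 at P14, and the fitted value was -0.59 ± 0.34 (SE, limma, adjusted p = 0.696). For Cacnb4, VCN minus LSO was 1.06 at P3 and -0.18 at P14. In the probe set used, Cacna2d2 stayed within 0.43 log2 units for every pair at either age. In its probe set 1451955_a_at, MNTB minus VCN was 0.47 at P3 and -0.70 at P14. At an unadjusted p under 0.05, 2 of the 6 genes counted in MNTB minus VCN, Cacna2d1 (0.0003) and Cacna2d3 (0.0004), where 9.53% of all tested genes did. The same 2 counted in MNTB minus LSO (0.0005 and 0.007), where 6.8% of all tested genes did. In VCN minus LSO, Cacna2d3 alone counted (0.0218), where 8.98% of all tested genes did.

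Other cells of the dissected tissue also differed between nuclei and ages. The 8 measured markers of granule and Purkinje cells, of which 7 were tested and 2 rose and 2 fell with age, had a mean level of 8.53 at P3 and 8.92 at P14 in VCN, which holds granule cells, against 6.57 and 7.16 in LSO and 6.26 and 6.55 in MNTB. Gabra6, the granule cell GABA receptor subunit, reached 7.97 in VCN at P14 and lay at 3.26 to 4.37 elsewhere. The mean level of these markers was lower in MNTB than in VCN, the direction of Cacna2d1 and opposite to that of Cacna2d3. The Purkinje cell markers Pcp2 and Car8 went the other way, with MNTB minus VCN at 0.11 and 0.60. The part of these cells in either difference was not tested. Ttr, the choroid plexus transthyretin, reached 12.58 in VCN at P14 and lay at 6.61 to 6.93 elsewhere.

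With age, all 7 myelin genes tested rose, with a median of 3.11, and their mean level went from 7.81 to 9.97 at P3 to 12.38 to 12.56 at P14. The 7 general neuronal genes had a mean level of 11.82 to 11.99 at P3 and 11.13 to 11.57 at P14, and 5 fell and 1 rose, with a median of -0.62. Of the other cell lists, astrocytes had 5 of 7 genes higher and 2 lower, microglia 4 of 6 higher, vessels 6 of 9 higher, meninges with choroid plexus 3 of 4 higher, and oligodendrocyte precursors 3 of 6 higher and 2 lower. The falls of Cacna2d1 and Cacnb1 had the direction of the lower neuronal markers. The mean of those markers went from 11.86 to 11.51 in VCN and from 11.82 to 11.13 in MNTB. Cacna2d1 fell more in VCN (-2.15) than in MNTB (-1.28), and Cacnb1 fell more in MNTB (-1.76) than in VCN (-1.21). The part of cell makeup in the falls of these subunit genes was not tested.

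The pore subunits are the partners of the beta and alpha2delta subunits. Of the 5 high-voltage-activated pore genes tested, 4 fell, 0 rose and the median was -0.80. Cacna1e, the R-type pore, fell by 1.84, with -2.63 in MNTB. Cacna1b, the N-type pore, fell by 1.41, with levels of 10.94 to 11.18 at P3 and 9.42 to 9.77 at P14. The L-type pores Cacna1d and Cacna1c fell by 0.80 and 0.69. Cacna1a, the P/Q-type pore that drives release at mature calyx synapses, gave -0.29 ± 0.12 (SE, 3 nuclei, limma, adjusted p = 0.0916), and its 4 probe sets ran from -1.06 to -0.06. Cacna1f and Cacna1s lay below the filter on low values. The low-voltage-activated pores Cacna1g and Cacna1h, which need no beta subunit, fell by 0.95 and 1.46. Cacnb4 was the only gene of the 13 pore and auxiliary genes plotted that passed as higher.

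**Figure D4:**
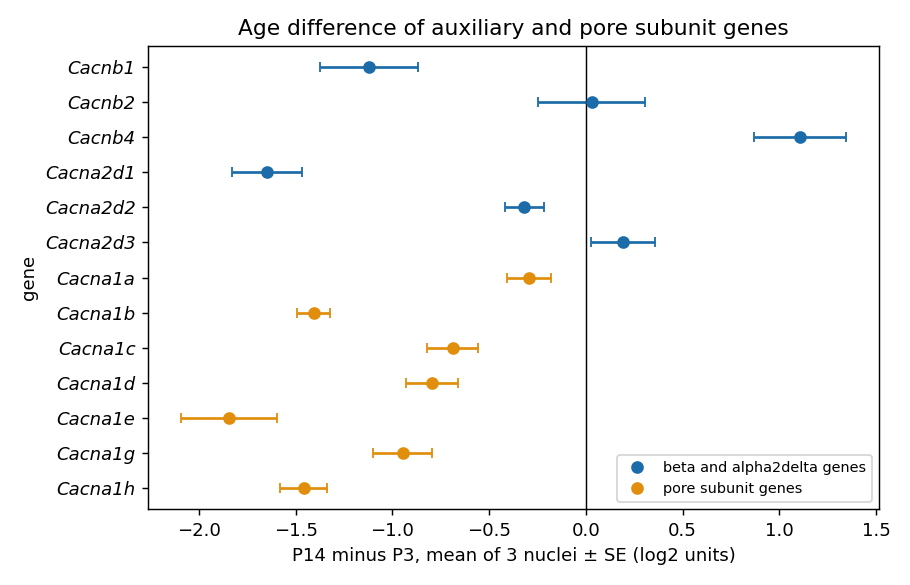
Age difference (P14 minus P3, log2 units, mean of 3 nuclei with its SE, horizontal axis) of the 6 beta and alpha2delta genes and the 7 tested pore subunit genes. Cacnb4 lies at 1.11, Cacnb2 and Cacna2d3 lie near 0, and Cacna2d1 at -1.65 lies among the pore genes Cacna1b, Cacna1e and Cacna1h.

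Relatives of these subunits did not all pass for age. Cacna2d4, the alpha2delta subunit known from photoreceptors, gave 0.07, Cachd1, an alpha2delta-like protein, 0.00, and the gamma subunit Cacng6 -0.03, and none of these 3 passed (limma, adjusted p = 0.675 to 0.992). Their probe sets ran from -0.19 to 0.48 for Cacna2d4, from -0.40 to 0.00 for Cachd1 and from -0.16 to -0.03 for Cacng6. The gamma family members that act as AMPA receptor partners all passed, 2 as higher and 4 as lower. Cacng3 fell by 1.79, Cacng8 by 0.69 and Cacng4 by 0.62, and Cacng5 rose by 1.03. The probe sets of Cacng8 ran from -0.69 to -0.14 and those of Cacng2 from -0.54 to -0.05.

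Proteins that bind the auxiliary subunits were read from lists as well. RGK proteins are small GTPases that bind beta subunits and inhibit the channels, and STAC adaptors hold channels at the membrane. Of the 4 tested, 1 passed, Stac, which fell by 2.09. Rem2, a brain RGK protein, gave -0.98 (adjusted p = 0.0898), with -2.16 in MNTB, -0.78 in LSO and 0.00 in VCN. That order of nuclei was also the order of Cacnb2, of Cacna2d2, of the STAC gene Stac2 and of the pore gene Cacna1e. It is therefore not particular to Rem2 and Cacnb2, and a link between these genes was not tested. Of the 5 tested ligands and membrane partners of alpha2delta subunits, 2 rose, the thrombospondin gene Thbs2 by 1.52 and the prion protein gene Prnp by 1.20, and 0 fell. Of the 7 active zone genes, which tether channels to release sites, 5 fell and 1 rose. Erc2 fell by 1.34, Erc1 fell by 1.20 and the RIM-binding protein gene Tspoap1 fell by 1.24, and Rims2 rose by 1.04, although its 5 probe sets ran from -1.07 to 1.37.

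For each gene the 3 tested genes with the most similar profile were found by the root mean square difference over the 6 arrays, after the mean of each gene was taken off. For Cacna2d1 they were Grp (0.13 log2 units), the gene of gastrin-releasing peptide, Hs3st3a1 (0.28) and Epha3 (0.32). For Cacna2d3 they were Sv2c (0.19), a synaptic vesicle protein, Crtac1 (0.21) and Cish (0.29). For Cacnb4 they were Frmd4b (0.11), Arhgef2 (0.16) and Plin3 (0.19). For Cacnb1 they were Grem1 (0.17), Fstl5 (0.18) and the kinase gene Camk2a (0.18), whose P14 levels were 7.35 in VCN, 8.17 in LSO and 6.80 in MNTB. For Cacnb2 they were Ptges3l (0.10), Zbtb42 (0.11) and Rec114 (0.15). Cacna2d2, whose values varied little, had the closest matches, Cckbr (0.035), Perp (0.048) and Mid2 (0.048).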

How the data were processed

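Total RNA from pooled tissue was amplified from 20 ng and hybridised to 6 arrays, per the labels' protocols. The authors deposited log2 expression values per probe set, made with RMA per the submitters' processing notes (version not given in the sources used). Values were used as deposited. Probe sets were named through the platform annotation (34945 of 45101 name 1 gene; RefSeq matched 34741 of these and changed 0 symbols). The probe set with the highest mean stood for its gene, with names ending in _x_at left out where another existed. Genes with a mean of at least 5.57, the 40th percentile of all probe sets, were tested (12958; all 6 subunit genes passed this filter).

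limma 3.58.1 in R 4.3.3 fitted additive effects of age and nucleus to the 6 arrays, with moderated variances and an intensity trend. Tests were two-sided, with Benjamini-Hochberg adjustment over all tested genes and a threshold of 0.05. Every p in the text comes from such a fit. The steps were tested on simulated data. The members and lists were chosen with earlier results of these data known. All subunit genes were named whatever their values. All high-voltage pore genes were named, and of other lists up to 4 genes with the largest age differences past the threshold; other listed genes were named after their values were seen. The alternatives were other scalings, filters, probe sets, variance models, a floor at the 25th percentile (4.47), no nucleus term, and each array left out. The sources used give no scan dates. The number of arrays limits the precision.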

Additional observations from a re-analysis of the deposited data

Results flagged for a closer look

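Cacnb2 differed between nuclei in the direction of its age change. P14 minus P3 was 0.66 log2 units in VCN and -0.79 in MNTB, so that the change in VCN exceeded that in MNTB by 1.46. The gene is listed because its age difference was at least 0.5 up in a nucleus and at least 0.5 down in another. The difference was not tested, since each value rests on 2 arrays and the model with an interaction has no residual degrees of freedom. Of the 12958 tested genes, 86 (0.664%) had differences that were opposite by this much. The probe set 1456401_at gave 0.48 and -0.34.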

How the results depend on the processing

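Of 354 alternative values of the 6 genes over the 4 contrasts, 293 kept their direction and their side of the threshold, 29 no longer passed, 8 newly passed and 24 changed sign. Of the values that changed sign, none had passed for age or nucleus apart from Cacna2d1 for age, which was 0.58 with the probe set 1440397_at; the cause was not tested. The age difference of Cacnb2 was -0.063 when arrays were centred on the median of the tested genes, an alternative chosen after seeing the data, and -0.0103 when quantile normalized again. For Cacna2d1, VCN minus LSO was -0.25 for the median of its probe sets, and for Cacna2d2 it was 0.032 with the tested-gene centring and 0.0502 for the median of its probe sets. With each array left out in turn, age ran from -0.29 to 0.44 for Cacnb2 and from -0.045 to 0.33 for Cacna2d3. MNTB minus LSO ran from -0.85 to 0.38 for Cacnb2. MNTB minus VCN ran from -0.55 to 0.40 for Cacnb1, from -1.21 to 0.029 for Cacnb2, from -0.51 to 0.62 for Cacnb4 and from -0.39 to 0.025 for Cacna2d2. VCN minus LSO ran from -1.07 to 0.018 for Cacnb1, from -0.12 to 0.83 for Cacnb2, from -0.13 to 1.01 for Cacnb4, from -0.20 to 0.55 for Cacna2d1 and from -0.19 to 0.13 for Cacna2d2. The number of genes that passed with an array left out was 3142 to 4710 for age (5317 with all 6 arrays; lowest when MNTB was left out, 3142 for its P3 and 3176 for its P14 array), 4 to 99 for MNTB minus LSO (21), 17 to 215 for MNTB minus VCN (78) and 4 to 159 for VCN minus LSO (48). These fits have fewer arrays. The fit already compares the ages within each nucleus, and the labels hold no replicate numbers for a further block.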
